A study of Rattus norvegicus with 18 samples.

Results

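Gene expression was compared between Glutamate cultures, which had been exposed to glutamate at an excitotoxic dose, and Control cultures, which had not. The members were chosen by the sample titles, and they were 6 of the 18 RNA-seq libraries of the series, Control 1, 2 and 3 and Glutamate 1, 2 and 3. All were neuroglial primary cultures from the cortex of newborn Wistar rats, and so held neurons together with glial cells. Per the series' design text the model was set up on day 10 in vitro with 100 µM glutamate, and total RNA was collected 4 h later. The methods describe an exposure in a buffer with glycine, a co-agonist of the NMDA receptor, and a return to conditioned medium, and they name cytosine arabinoside as the agent that held back dividing glia. No source used here says whether the Control cultures went through the buffer changes, so that glutamate and its buffer cannot be told apart. The remaining 12 libraries were the groups Memantine, Glutamate_vesicles, Glutamate_secret and Glutamate_BPC, which entered the shared estimate of spread and are otherwise used as side-by-side levels. No label ties a library to an animal or a litter, and the p-values therefore measure the spread between these samples, which may be technical.

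Glutamate is the main excitatory transmitter of the cortex. When it stays at the synapse, NMDA and AMPA receptors keep passing ions, calcium and sodium enter the neuron, mitochondria lose their potential, and calcium-dependent proteases and phosphatases are switched on. Synaptic calcium also drives the immediate early genes, a set of transcription factors and effectors such as Fos and Egr1 that are transcribed within minutes and need no new protein. Astrocytes take glutamate up and tolerate it better than neurons do, and in damaged tissue they and microglia switch on cytoskeletal, matrix and inflammatory genes.

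The genes with the smallest p included the synaptic gene LRRTM1 and the neuronal tubulin gene Tubb3 at lower levels in Glutamate, and the immediate early gene Fos and the stress gene Ppp1r15a at higher levels. Near the head of the lower genes stood LRRTM1 (spelled in capitals in the files), a leucine-rich adhesion protein of the postsynaptic side that binds presynaptic neurexins, with 25.1, 29.99 and 33.9 CPM (counts scaled to a common library size) in Control 1, 2 and 3 against 5.17, 6.79 and 6.52 in Glutamate 1, 2 and 3. Among higher genes the lowest p belonged to Trib1, a pseudokinase adaptor of protein degradation, with 10.6, 15.95 and 15.9 CPM in Control against 46.6, 55.7 and 40.8 CPM in Glutamate. The groups did not overlap for either gene. However, no gene passed the test set for the comparison. The quasi-likelihood test of edgeR, fitted to all 18 libraries, called none at an adjusted p below 0.05 (0 of 14398 genes, 0%), and its smallest adjusted p was 0.261. At an unadjusted p below 0.05, 307 genes were higher (2.13% of those tested) and 860 were lower (5.97%). This balance depended on the model, with 1007 higher and 1269 lower when the rRNA share was a covariate, 4005 higher and 3503 lower under limma voom with sample weights, and 111 higher and 705 lower with only the 6 libraries. The 3 Glutamate values lay above all 3 Control values in 645 genes (4.48%) and below all of them in 1118 (7.76%). DESeq2, a count model with another estimate of spread, called 35 genes higher (0.243%) and 197 lower (1.37%) at an adjusted p below 0.05. The likelihood-ratio test of edgeR called 7 higher (0.0486%) and 38 lower (0.264%). With the replicate number as a block, the quasi-likelihood test called 166 of 14398 genes (7 higher and 159 lower). No label ties that number to a shared culture, but some library measures went with it across groups. This fit and those measures are described at the end. The lack of calls in the main test therefore holds for a fit without the number. Since the main test called none, genes are described below as higher or lower with their values. A log2 fold change is always Glutamate minus Control, and its median over all genes tested was 0.08.

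**Figure D1:**
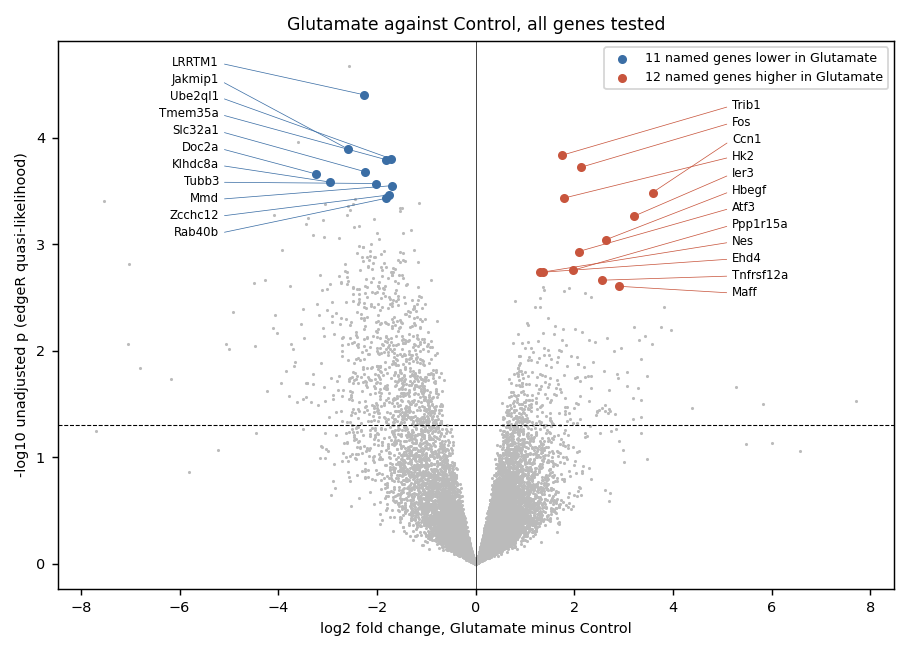
Log2 fold change of Glutamate against Control (x axis) and -log10 of the unadjusted quasi-likelihood p of edgeR (y axis) for the 14398 genes tested, in grey, with 11 named lower and 12 named higher genes in colour and a dashed line at 0.05. Above the line, 860 genes lie on the lower side and 307 on the higher side.

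Total counts of the 6 libraries lay between 8409574 in Control 1 and 14869744 in Control 2. The share of ribosomal RNA (rRNA) was 43.0%, 6.80% and 6.58% in Control 1, 2 and 3 and 17.3%, 8.001% and 20.4% in Glutamate 1, 2 and 3, and the summed CPM of 62 ribosomal protein genes was 144054, 33022 and 33199.7 against 168915, 16308 and 79169. Control 1 had the most rRNA, the lowest total and the smallest scaling factor (0.417), and its values were often far from those of Control 2 and 3. Some results are therefore also given without it. With Control 1 left out, the main test called 0 genes, with 347 genes higher and 842 lower at the unadjusted level.

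The 11 genes described as lower in Glutamate were taken from the 12 with the smallest p among genes whose groups did not overlap and whose log2 CPM averaged 1 or more. These values chose them, and their lack of overlap is therefore no further support. Of the 11, 7 are given here by name with all 6 levels, in the order of their roles. At the presynaptic side stood Doc2a, a calcium sensor of transmitter release, at 7.14, 13.2 and 10.2 CPM in Control 1, 2 and 3 and 1.68, 0.889 and 0.681 CPM in Glutamate 1, 2 and 3. Its fold change was -3.24 ± 0.68 (log2 ± standard error, SE), the lowest of the 11, and every Glutamate library was below 2 CPM. Slc32a1 loads GABA into synaptic vesicles and marks inhibitory neurons. Its levels were 18.8, 41.2 and 40.8 CPM in Control and 9.30, 6.29 and 5.93 in Glutamate, a log2 fold change of -2.23 ± 0.47. Control 1 lay below the other Control libraries for both genes and still above every Glutamate library.

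At the postsynaptic side stood LRRTM1, already given, with a small spread within each group and a log2 fold change of -2.27 ± 0.40. Tmem35a assists the assembly of nicotinic acetylcholine receptors. It stood at 75.4, 90.7 and 73.8 CPM in Control and at 25.96, 19.5 and 22.96 CPM in Glutamate. Jakmip1 binds microtubules and GABA-B receptors. Its levels were 32.8, 44.2 and 33.98 CPM in Control and 7.36, 5.33 and 5.74 in Glutamate, with a log2 fold change of -2.59 ± 0.51. Ube2ql1, a relative of the ubiquitin-conjugating enzymes, had 57.4, 82.1 and 70.7 CPM in Control and 24.02, 22.3 and 18.1 in Glutamate. The most abundant of the 11 was Tubb3, the neuronal β-tubulin that serves as a marker of neurons in such cultures, with 493, 946 and 669.7 CPM in Control and 214, 141 and 165 in Glutamate and a log2 fold change of -2.02 ± 0.43. Of the other 4, Klhdc8a and Rab40b were scarce, with at most 10.3 and 8.57 CPM in Control. Mmd and Zcchc12 were at intermediate levels, with 81.7 and 57.96 CPM in their lowest Control library against 44.04 and 31.3 CPM in their highest Glutamate library. The 11 shared an edgeR adjusted p of 0.261. DESeq2 called all 11, with adjusted p-values up to 0.0043, and the likelihood-ratio test called all 11. Both used the counts that chose these genes, and their calls are no further support.

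**Figure D2:**
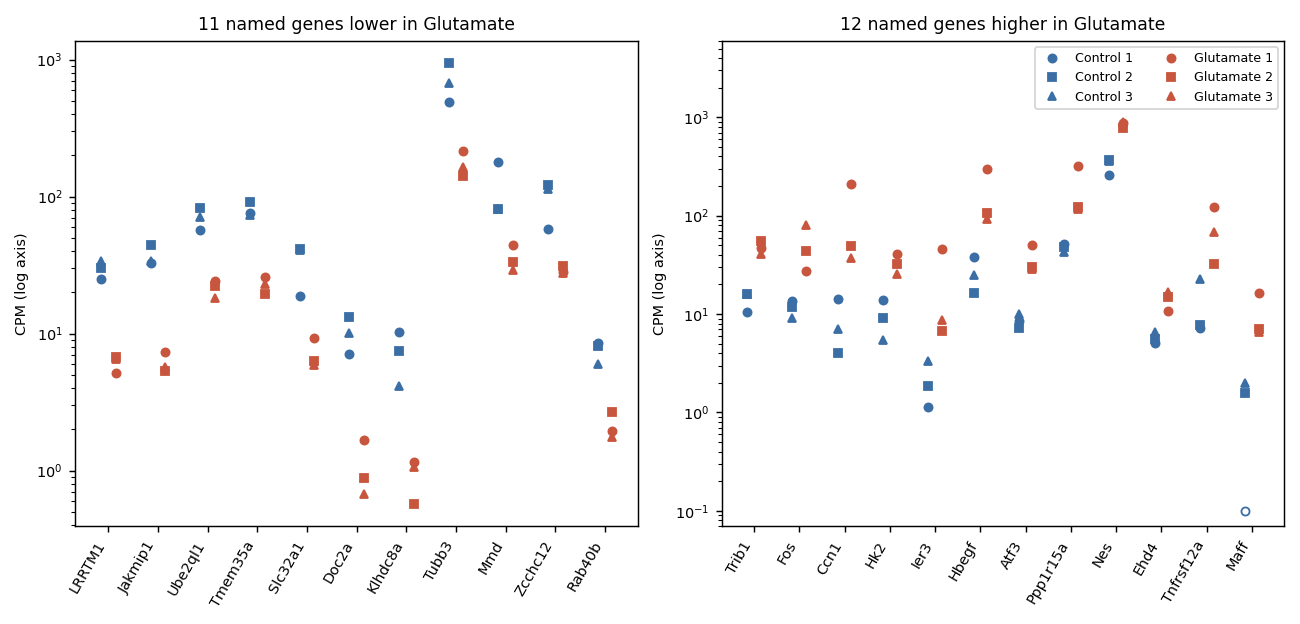
CPM (log axis) of the 11 lower (left) and the 12 higher named genes (right) in each of the 3 Control (blue) and 3 Glutamate (red) libraries, with the symbol giving the replicate number. The open circle at the foot of the right panel is Maff in Control 1, which had a CPM of 0 and is drawn at 0.1. Glutamate 1 stands above the other Glutamate libraries for Ccn1, Ier3, Hbegf and Ppp1r15a.

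The 12 higher genes, named by the same rule, included transcription factors, secreted or surface signals and stress regulators. Transcription factors were represented by Fos, a partner in the AP-1 factor, with 13.7, 11.9 and 9.10 CPM in Control 1, 2 and 3 and 27.6, 43.5 and 80.2 CPM in Glutamate 1, 2 and 3. The log2 fold change was 2.13 ± 0.44, and the lowest Glutamate library stood at 27.6 CPM against 13.7 CPM in the highest Control library. Atf3, a stress-induced factor of the same protein class, had 8.57, 7.17 and 9.96 CPM in Control and 50.6, 30.3 and 28.5 in Glutamate, a fold change of 2.09 ± 0.53 on the log2 scale. Maff, a small Maf protein that pairs with AP-1 and NRF2 family factors, was at 0, 1.57 and 1.99 CPM in Control and at 16.4, 7.05 and 6.62 CPM in Glutamate. Glutamate 3 was the highest library for Fos, and Glutamate 1 was the highest for Atf3 and Maff.

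Secreted and surface signals made up another group. Ccn1, a matricellular protein that binds integrins, had 14.3, 3.98 and 7.05 CPM in Control and 211, 49.5 and 36.9 in Glutamate and the largest log2 fold change of the 12 (3.59 ± 0.78). Without Glutamate 1 it was 2.40. Hbegf, a ligand of the EGF receptor, had 37.97, 16.2 and 25.1 CPM in Control and 295, 105 and 91.8 in Glutamate, and a log2 fold change of 2.64 ± 0.65 that became 1.91 without Glutamate 1. Tnfrsf12a, the receptor of the cytokine TWEAK, had 7.14, 7.66 and 22.8 CPM in Control and 123, 32.1 and 68.98 in Glutamate. Glutamate 1 was the highest library for all 3 genes.

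Stress and metabolic regulators followed. Ppp1r15a, also called GADD34, brings a phosphatase to the translation factor eIF2α and so ends the integrated stress response. Its levels were 51.96, 48.1 and 42.9 CPM in Control and 319.8, 122 and 118 in Glutamate, with a log2 fold change of 1.97 ± 0.52. Ier3, an early-response regulator of cell survival, had 1.14, 1.87 and 3.34 CPM in Control and 46.1, 6.73 and 8.76 in Glutamate. Its log2 fold change moved from 3.21 to 1.81 without Glutamate 1. Trib1, already given, had a log2 fold change of 1.75 ± 0.35. Hk2 starts glycolysis by phosphorylating glucose, and it had 13.99, 9.13 and 5.44 CPM in Control and 40.4, 32.5 and 25.3 in Glutamate. Nes, or nestin, is an intermediate filament of progenitors and reactive astrocytes, and at 259.8, 368 and 359 CPM in Control and 885, 778 and 889 in Glutamate it was the most abundant of the 12. Ehd4, which works in endocytic recycling, had 5.14, 5.55 and 6.52 CPM in Control and 10.8, 14.9 and 16.7 in Glutamate. The adjusted p-values of edgeR for the 12 ran from 0.261 to 0.282. DESeq2 called all 12, with adjusted p-values up to 0.0225, and the likelihood-ratio test called 7. As with the lower genes, these calls are no further support.

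The promoters of the named genes were searched for the cAMP response element, because calcium-activated kinases act on genes such as Fos through the factor CREB, which binds it. The sequences are from RefSeq for the build GRCr8, which is not the authors' build. They are the 250 bases before each gene's start, and the table held 8 of the 12 higher and 10 of the 11 lower genes. It had no entry for Trib1, Fos, Ier3, Atf3 and Doc2a. Shown are the 2 higher genes with the full 8-base element and Ccn1, which had the largest fold change of the 12 higher genes. They are written 5′ to 3′ on the gene's strand. Capitals mark the core TGACG, or CGTCA, its reverse complement (the same site on the other strand). They lie at chr1:105139597-105139846 on the minus strand (Ppp1r15a), chr7:112792537-112792786 on the plus strand (Maff) and chr2:237225690-237225939 on the minus strand (Ccn1).
Ppp1r15a: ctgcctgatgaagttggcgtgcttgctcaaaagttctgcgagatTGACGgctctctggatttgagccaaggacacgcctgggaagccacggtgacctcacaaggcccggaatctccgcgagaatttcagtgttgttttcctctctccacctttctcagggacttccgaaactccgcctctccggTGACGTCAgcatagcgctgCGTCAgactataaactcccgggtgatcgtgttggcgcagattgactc
Maff: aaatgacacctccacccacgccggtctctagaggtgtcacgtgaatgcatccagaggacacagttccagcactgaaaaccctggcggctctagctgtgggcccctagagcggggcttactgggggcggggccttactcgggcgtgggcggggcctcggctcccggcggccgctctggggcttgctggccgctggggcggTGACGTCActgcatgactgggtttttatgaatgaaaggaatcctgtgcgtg
Ccn1: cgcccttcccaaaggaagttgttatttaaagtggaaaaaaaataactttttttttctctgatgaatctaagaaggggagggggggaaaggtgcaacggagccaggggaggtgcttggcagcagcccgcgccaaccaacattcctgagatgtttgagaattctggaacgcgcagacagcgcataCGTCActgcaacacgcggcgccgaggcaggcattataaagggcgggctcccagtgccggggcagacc
In Ppp1r15a the full element TGACGTCA lies from 66 to 59 bases before the start, in Maff from 51 to 44, and in Ccn1 the core alone lies from 67 to 63. Both strands were searched, and the full element contains the core. The full element was found in 2 of the 8 higher genes (25%) and in 0 of the 10 lower genes, and in 3.00% of the 10625 promoters of tested genes. The core was found in 5 of 8 (62.5%) and 3 of 10 (30%), against 27.8% of those promoters. Among all 307 genes with an unadjusted p below 0.05 that were higher, 239 had a promoter in the table and 4.60% of these held the full element, and among the 860 lower genes it was 3.67% of 600. The AP-1 element TGANTCA was in 0 of the 8 and 0 of the 10 windows, against 4.14% of tested genes. It was in 7.95% of the 239 and 2.67% of the 600. Also searched were the TATA box TATAAA and the CArG box, a further short element. The TATA box was in 2 of the 8 (25%) and 0 of the 10, against 6.26% of tested genes. It was in 9.21% of the 239 and 6.67% of the 600. The CArG box was in 0 of the 8 and 0 of the 10, against 1.18% of tested genes. These matches describe the letters of the window and do not show that a factor was bound.

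In the other 4 groups the 11 lower genes were at levels that differed between the Memantine libraries. Memantine blocks the NMDA receptor channel, and the design text uses it as the positive control within the model, and the methods describe it as given in the glutamate solution, although the label of that group does not name glutamate. LRRTM1 had 19.9, 26.7 and 8.55 CPM in Memantine 1, 2 and 3, where Control spanned 25.1 to 33.9 and Glutamate 5.17 to 6.79 CPM. Tubb3 had 475, 598 and 172 CPM in the same libraries. Memantine 1 and 2 lay above every Glutamate library for both genes, and Memantine 3 lay within or just above the Glutamate range. In the 9 libraries of Glutamate_vesicles, Glutamate_secret and Glutamate_BPC, LRRTM1 lay between 5.97 and 9.63 CPM and Tubb3 between 129 and 217 CPM, below every Control library. Among higher genes, Fos had 47.2, 19.7 and 40.96 CPM in Memantine and 23.8 to 52.8 CPM in the 9 libraries, above the 13.7 CPM of the highest Control. Hk2 and Atf3 had 9-library medians of 17.4 and 16.5 CPM, below the lowest Glutamate values of 25.3 and 28.5 CPM. Their highest values in the 9 libraries were 20.3 and 31.9 CPM, so that Atf3 reached the Glutamate range and Hk2 did not. For Ccn1 and Hbegf the 9-library medians of 113 and 170 CPM lay within the Glutamate range. These levels are set side by side, and no test of them was made here.

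**Figure D3:**
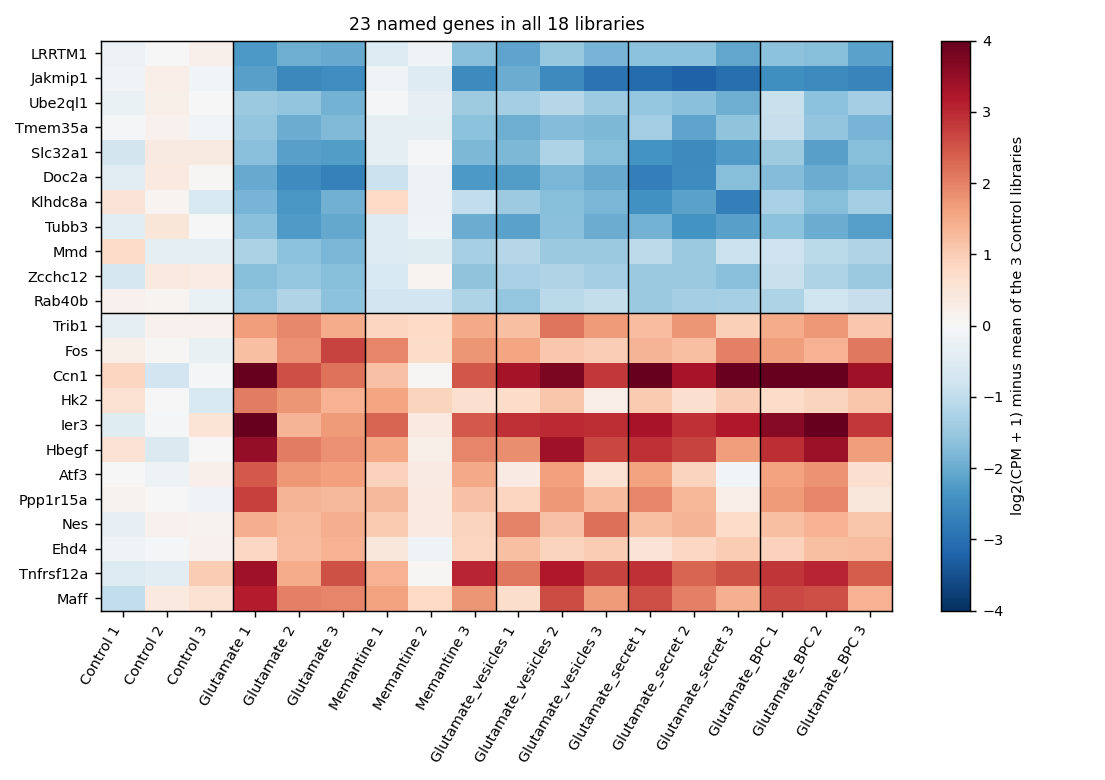
Levels of the 23 named genes in all 18 libraries, as log2(CPM + 1) minus the mean of the 3 Control libraries (colour), with the 11 lower genes above the horizontal line and the 12 higher below it. For the lower genes Memantine 1 and 2 are paler than Glutamate, and Memantine 3 and the 9 libraries to its right are blue like Glutamate.

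Marker genes of 10 cell classes were read next, to describe which cells the RNA came from. Markers of the labelled mixture of neurons and glia were counted in all 6 libraries. Their sums were at least 1331 CPM for pan-neuronal and 4464 CPM for astrocyte markers. The filter on low counts, set over all 18 libraries, kept all 15 pan-neuronal and 13 of 14 astrocyte markers. In bulk RNA, fewer cells of a type and less RNA per cell cannot be told apart. Neuronal markers were lower. For the 12 markers of excitatory cortical neurons the summed level was 662, 322 and 249 CPM in Control 1, 2 and 3 and 169, 74.5 and 79.9 CPM in Glutamate 1, 2 and 3, a ratio of means of 0.263. The groups did not overlap, and the median log2 fold change of -2.21 (-2.07 without Control 1) compares with 0.08 over all genes. Of the 12, 8 had an unadjusted p below 0.05, all lower, and 0 were higher, against 5.97% and 2.13% of all genes. Slc17a7, the vesicular glutamate transporter of cortical neurons, had 51.4, 78.3 and 52.9 CPM in Control and 16.4, 3.81 and 4.09 in Glutamate, with a log2 fold change of -2.92 ± 0.85. Neurod1, a transcription factor of young neurons, had 25.4, 6.72 and 5.92 CPM in Control and 3.23, 1.71 and 2.14 in Glutamate. Its fold change of -2.41 (log2) leaned on the high Control 1 and was -1.43 without it. Camk2a, the kinase subunit of excitatory synapses, named after its values were seen, had 8.28, 26.5 and 24.4 CPM in Control and 2.32, 6.29 and 1.56 in Glutamate.

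For 15 pan-neuronal markers the sums were 6394, 5304 and 3995 CPM in Control and 2840.01, 1331 and 1718 CPM in Glutamate, a ratio of 0.375, again without overlap. All 15 had a log2 fold change below 0, with a median of -1.44 (-0.996 without Control 1), and 8 had an unadjusted p below 0.05. Nefh, the heavy neurofilament chain, stood at 3.43, 6.18 and 6.62 CPM in Control and 1.42, 1.71 and 1.07 in Glutamate. Snap25, a SNARE protein of the presynaptic terminal, had 34.3, 99.9 and 105 CPM in Control and 9.94, 29.5 and 14.2 in Glutamate and a log2 fold change of -2.15 ± 0.82. Rbfox3, known as NeuN, did not follow as closely. It had 53.96, 134 and 58.97 CPM in Control and 47.3, 54.3 and 43.3 in Glutamate, so that the groups overlapped, with a fold change of -0.77 ± 0.54 on the log2 scale (-0.22 without Control 2) and an edgeR adjusted p of 0.911.

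For 15 markers of inhibitory neurons the sums were 795, 679 and 619.97 CPM in Control and 344, 446 and 250.03 CPM in Glutamate, a ratio of 0.497. The median log2 fold change was -1.08, and 8 of 15 had an unadjusted p below 0.05, all lower. Calb2, or calretinin, a calcium-binding protein of interneurons, had 93.4, 102 and 85.8 CPM in Control and 37.5, 15.2 and 25.9 in Glutamate. Lhx6, a transcription factor of interneurons from the medial ganglionic eminence, had 3.14, 8.74 and 7.32 CPM in Control and 0.387, 1.78 and 0.486 in Glutamate and was named after its values were seen. Both markers of the transmitter itself, Gad1 and Gad2, were among the 8. The ratio was higher than for the excitatory markers, and that difference was not tested. The excitatory ratio leaned more on Control 1, with a sum of 662 CPM against 322 and 249 in Control 2 and 3.

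The glial lists had medians above that of all genes, and few of their members passed. For 13 astrocyte markers the sums were 5748, 4464 and 7789.8 CPM in Control and 8362, 7377 and 13707 CPM in Glutamate, so that Glutamate 2 lay below Control 3. The median log2 fold change was 0.60 (0.06 without Glutamate 2), 3 of 13 lay below 0, and 0 of 13 had an unadjusted p below 0.05. Gfap, the astrocyte filament, had 1275, 1590.3 and 3603 CPM in Control and 4142, 2115 and 7559 in Glutamate, with a log2 fold change of 1.09 ± 0.67 and an edgeR adjusted p of 0.825, and leaving out 1 library gave 0.54 to 1.69. The 14 oligodendrocyte lineage markers had sums of 586, 1081 and 1122 CPM against 1338, 1801 and 1405 CPM, with 1 at an unadjusted p below 0.05. This was Cnp, a myelin-associated enzyme, at 176, 267 and 275 CPM in Control and 515, 331 and 472 in Glutamate. For 14 microglia and macrophage markers the sums were 83.4, 209 and 209 CPM against 231, 211 and 553 CPM. The groups were separated by little, since Glutamate 2 exceeded Control 2 only slightly, and Glutamate 3 was far above the rest. Their median log2 fold change of 1.03 became 0.60 without Control 1 and 0.38 without Glutamate 3. Tmem119, a microglial surface protein, had 0, 0.393 and 0.646 CPM in Control and 2.20, 1.08 and 2.14 in Glutamate, and Aif1, which encodes IBA1, had 8.28, 9.28 and 8.29 CPM in Control and 14.3, 5.59 and 32.2 in Glutamate with overlap between the groups.

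Dividing cells were represented by 15 cell cycle genes, with sums of 248, 282 and 346 CPM in Control and 415, 538 and 492 CPM in Glutamate. All 15 had a log2 fold change above 0, with a median of 0.65, and 2 had an unadjusted p below 0.05. Mcm5, a subunit of the replicative helicase, had 8.28, 13.8 and 14.97 CPM in Control and 26.5, 21.1 and 27.9 in Glutamate. Top2a, a topoisomerase of dividing cells, had 23.98, 38.3 and 48.4 CPM in Control and 42.9, 125 and 60.3 in Glutamate, and the groups overlapped. Vascular and connective tissue cells contributed little or unevenly. Of 12 endothelial markers, 10 had a row in the files and 2 passed the filter on low counts, with a summed level of 0.681 to 3.14 CPM. Of these, Pecam1, an adhesion protein of endothelium, had 2.57, 2.50 and 1.67 CPM in Control and 0.904, 0.444 and 0.292 in Glutamate. For 8 fibroblast and meningeal markers the sums were 1319.7, 655 and 571 CPM against 2518, 682 and 1255 CPM, and for 5 mural cell markers 154, 99.4 and 197 CPM against 424, 137 and 419.9 CPM. The highest of these sums were in Glutamate 1 and, for the mural markers, also in Glutamate 3, with overlap between the groups.

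**Figure D4:**
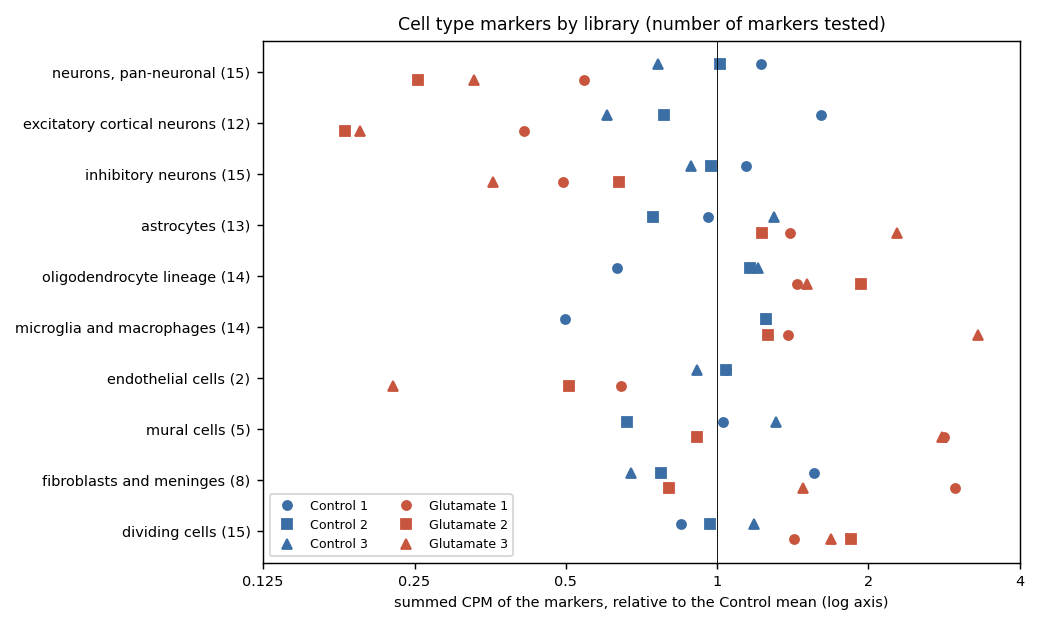
Summed CPM of the tested markers of each cell class in every Control (blue) and Glutamate (red) library, relative to the mean of the 3 Control libraries (log axis), with the symbol giving the replicate number. The 3 neuronal classes lie to the left in all Glutamate libraries, with ratios of means of 0.375, 0.263 and 0.497.

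Gene functions were read with 39 lists. Some of their members also stand in the neuronal marker lists, such as Tubb3, Slc17a7 and Calb2. For the synaptic, channel, calcium and cytoskeletal lists, a lower level and a smaller neuronal share of the RNA cannot be told apart in bulk RNA. Member counts at an unadjusted p below 0.05 stand beside 2.13% of all genes higher and 5.97% lower. Among activity-dependent genes, 23 immediate early transcription factors had a median log2 fold change of 1.14, or 1.40 without Control 1. Of these, 12 were higher and 1 lower at an unadjusted p below 0.05. Besides Fos, Atf3 and Maff, and named after their values were seen, the AP-1 member Fosl2 had 0.571, 1.13 and 1.94 CPM in Control and 5.55, 17.8 and 4.57 in Glutamate, and the zinc finger factor Egr2 had 0, 0.933 and 0.916 CPM in Control and 1.81, 10.3 and 2.72 in Glutamate. Egr1 had 15.99, 13.8 and 14.5 CPM in Control and 19.5, 53.3 and 33.7 in Glutamate. The orphan nuclear receptor Nr4a1 had 3.14, 4.12 and 4.58 CPM in Control and 8.14, 14.2 and 11.5 in Glutamate, the nuclear factor Csrnp1 0.857, 1.03 and 1.94 CPM in Control and 9.17, 6.41 and 2.82 in Glutamate and the Krüppel-like factor Klf4 7.99, 3.63 and 3.77 CPM in Control and 20.8, 15.8 and 19.7 in Glutamate. The 1 lower at an unadjusted p below 0.05 was Egr3, a further factor of the Egr family. It had 2.28, 3.14 and 2.69 CPM in Control and 0, 0.762 and 0.292 in Glutamate. In all, 2 of the 23 had a log2 fold change below 0. Npas4, which depends on neuronal calcium entry, was below the filter, with 10 counts over the 3 Control and 3 over the 3 Glutamate libraries.

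The 23 activity-induced effector genes did not move together. Their median log2 fold change was 0.20 (-0.10 without Glutamate 2 and 0.48 without Glutamate 3), and 7 were higher and 3 lower at an unadjusted p below 0.05. The lower ones were Plk2, Ptgs2 and Rgs2. Plk2, a kinase that weakens synapses after strong activity, had 30.3, 72.1 and 55.6 CPM in Control and 9.30, 15.9 and 8.07 in Glutamate and a log2 fold change of -2.25 ± 0.64. Ptgs2, which makes prostaglandins, had 2.86, 0.638 and 0.592 CPM in Control and 0.129, 0.127 and 0.0973 in Glutamate, and Control 1 carried most of the Control level. Rgs2, a brake on G protein signalling named after its values were seen, had 152, 51.3 and 37.3 CPM in Control and 47.7, 14.2 and 26.1 in Glutamate. On the higher side stood Ccn1 and Trib1, given above, and Gadd45g, a growth arrest gene named after its values were seen, with 2.28, 3.88 and 8.83 CPM in Control and 58.6, 5.59 and 16.4 in Glutamate. Arc, an effector of synaptic plasticity, had 0, 1.96 and 1.40 CPM in Control and 0, 4.51 and 4.09 in Glutamate, and the neurotrophin Bdnf had 4.85, 1.33 and 1.67 CPM in Control and 7.88, 5.21 and 2.92 in Glutamate. Both overlapped between groups, with edgeR adjusted p-values of 0.986 and 0.785. Of 13 phosphatases and Sprouty proteins that limit ERK signalling, Spry4 (2.28, 8.54 and 6.41 CPM in Control and 10.7, 31.6 and 12.6 in Glutamate) and Dusp6 (21.7, 13.9 and 9.53 CPM in Control and 39.1, 27.2 and 22.8 in Glutamate) were higher and Dusp2 (11.7, 5.10 and 4.79 CPM in Control and 4.004, 0.381 and 1.95 in Glutamate) was lower.

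In each list of glutamate receptors a few genes were lower, and most did not pass, beside 5.97% lower and 2.13% higher among all genes. Of 7 NMDA receptor subunits, 2 had an unadjusted p below 0.05, both lower. The median log2 fold change was -1.48 (-0.85 without Control 3 and -1.92 without Control 1), with 2 of 7 above 0. Grin1, the obligatory subunit, had 43.97, 98.1 and 94.1 CPM in Control and 41.6, 18.7 and 15.95 in Glutamate, with a log2 fold change of -1.64 ± 0.61. Grin2b had 12.3, 53.2 and 25.1 CPM in Control and 8.78, 13.02 and 8.27 in Glutamate, and the groups overlapped through the low Control 1. Among 13 AMPA receptor genes, 2 auxiliary subunits, Cacng3 and Cacng8, were lower, and Cacng3 had 10.6, 17.5 and 13.3 CPM in Control and 5.55, 2.22 and 1.85 in Glutamate. The kainate and metabotropic list held 13 tested genes, of which 4 were lower and 0 higher, and its summed CPM overlapped between the groups. In this list and in the AMPA receptor list, 3 of 13 lay above 0. Grm2 had 1.999, 3.04 and 3.02 CPM in Control and 1.29, 0.571 and 0.584 in Glutamate. Grm7 had 2.28, 3.68 and 3.34 CPM in Control and 0, 0.571 and 0 in Glutamate, and both are presynaptic receptors that hold back release. In the list of glutamate uptake and glutamine cycling, the median was 0.36 (0.06 without Control 1 and 0.05 without Glutamate 2), and the 2 genes that were lower were the vesicular transporters of neurons, Slc17a7 and Slc17a6 (7.71, 11.3 and 8.51 CPM in Control and 2.20, 2.22 and 0.876 in Glutamate). Of 19 GABA genes, 6 were lower and 0 higher, with a median of -1.13. Their summed CPM overlapped, with 710, 1196 and 1300 in Control and 744, 1468 and 881 in Glutamate, a ratio of means of 0.965. Gabra5, a receptor subunit found outside synapses, had 16.3, 38.6 and 31.02 CPM in Control and 7.10, 7.24 and 3.50 in Glutamate.

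The machinery of the synapse was lower in part of its members. Of 29 genes of vesicle release, 14 had an unadjusted p below 0.05, all lower, and 15 had groups without overlap, all lower, against 5.97% and 7.76% of all genes. The median log2 fold change was -1.43 (-1.50 without Control 1), and the summed level was 2513, 2787 and 2278 CPM in Control and 1416, 753 and 698 CPM in Glutamate. Syn2, a synapsin that tethers vesicles, had 14.3, 26.5 and 25.8 CPM in Control and 8.14, 4.76 and 3.70 in Glutamate. Of 21 postsynaptic scaffold genes, 6 were lower and 0 higher, with a median of -0.998. Camk2b, the kinase subunit that binds actin, had 334, 459.7 and 331 CPM in Control and 161, 82.8 and 105 in Glutamate, and Dlgap1, a scaffold under PSD-95, had 185, 118 and 71.3 CPM in Control and 45.5, 64.4 and 52.2 in Glutamate. Among 31 synaptic adhesion genes, 6 were lower, LRRTM1 at the head, and 0 higher. Lrfn2, a partner of PSD-95 at the membrane, had 20.6, 26.1 and 20.8 CPM in Control and 7.36, 7.94 and 7.39 in Glutamate, and the median of the list was -0.79.

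Genes of excitability and calcium handling were lower in part of each list, beside 5.97% lower and 2.13% higher among all genes. Of 25 calcium-dependent enzymes and buffers, 17 had an unadjusted p below 0.05 and 16 had no overlap between the groups, all in the lower direction, and the median was -1.25. In CPM their sum nonetheless overlapped, with 10985, 5536 and 4073 in Control and 4627, 2434 and 3855 in Glutamate. The sums of the potassium and sodium channel lists overlapped as well, as did that of calcium pumps, exchangers and release channels. Camk1g, a calcium/calmodulin-dependent kinase of neurons, had 4.57, 14.3 and 12.2 CPM in Control and 2.20, 1.21 and 1.65 in Glutamate, with a log2 fold change of -2.64 ± 0.69. Of 29 potassium channels, 11 were lower and 0 higher, with a median of -1.04. Kcnc2, a channel of fast-spiking neurons, had 7.42, 1.52 and 2.32 CPM in Control and 0.387, 0.254 and 0.389 in Glutamate, and Kcnj4, an inward rectifier, had 20.6, 17.96 and 14.3 CPM in Control and 5.17, 0.698 and 1.65 in Glutamate. Among 15 voltage-gated calcium channel genes 5 were lower, with a median of -1.27. Cacna2d3, an auxiliary subunit, had 8.57, 22.4 and 15.1 CPM in Control and 4.52, 3.36 and 2.82 in Glutamate, and Cacna1g, a T-type pore, had 5.14, 24.3 and 26.1 CPM in Control and 5.42, 5.02 and 6.42 in Glutamate, with overlap. Of 8 sodium channel genes 2 were lower, both β subunits, and Scn3b had 65.96, 92.4 and 56.7 CPM in Control and 30.6, 28.7 and 25.3 in Glutamate and Scn2b 37.7, 37.9 and 32.6 CPM in Control and 17.6, 15.05 and 20.1 in Glutamate. Of 21 calcium pumps, exchangers and release channels 5 were lower, and 5 had a log2 fold change above 0. Orai2, a store-operated channel, had 53.7, 40.5 and 23.9 CPM in Control and 9.30, 8.82 and 8.17 in Glutamate, and Atp2b2, a calcium pump of the plasma membrane, had 13.4, 38.2 and 33.4 CPM in Control and 8.40, 7.36 and 7.30 in Glutamate.

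Structural and secreted neuronal genes showed the same direction in part, beside 5.97% lower and 2.13% higher among all genes. All 28 cytoskeletal genes had a log2 fold change below 0, 10 of them at an unadjusted p below 0.05. The median was -0.93 (-0.68 without Control 1 and -1.30 without Glutamate 1), and the summed CPM overlapped between the groups. Spock1, a secreted proteoglycan of neurons placed in this list, had 13.1, 14.6 and 12.7 CPM in Control and 0.904, 2.79 and 1.46 in Glutamate and a log2 fold change of -2.94 ± 0.81. Of 18 neuropeptide and granin genes, 6 were lower and 1 higher, with a median of -1.46. Adcyap1, the precursor of the peptide PACAP, had 4.28, 9.67 and 3.77 CPM in Control and 1.42, 0.635 and 0.195 in Glutamate, and chromogranin B, Chgb, had 38.3, 111 and 73.2 CPM in Control and 22.6, 34.98 and 22.5 in Glutamate. The higher one was Vgf, a secreted peptide precursor induced by neurotrophins, with 10.8, 9.42 and 21.4 CPM in Control and 148, 19.7 and 24.9 in Glutamate. Its log2 fold change of 2.20 was carried by Glutamate 1 and became 0.68 without it. Of 37 axon guidance genes, 6 were lower and 0 higher, with a median of -0.74 (-0.41 without Glutamate 1 and -1.37 without Glutamate 2) and 11 above 0. Their summed CPM overlapped between the groups. Epha4, an ephrin receptor, had 164, 77.8 and 61.1 CPM in Control and 15.1, 24.6 and 29.5 in Glutamate and its ligand family member Efna3 37.4, 28.7 and 23.5 CPM in Control and 10.1, 4.000 and 5.45 in Glutamate. Among 19 neurotrophic factor and receptor genes 3 were higher and 1 lower. Fgf2, a growth factor that glia release, had 1.43, 0.245 and 0.323 CPM in Control and 2.97, 2.35 and 2.14 in Glutamate. The lower one was Pdgfb, which was listed at 0 in Control 1 and in all 3 Glutamate libraries and had 1.72 CPM at most.

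**Figure D5:**
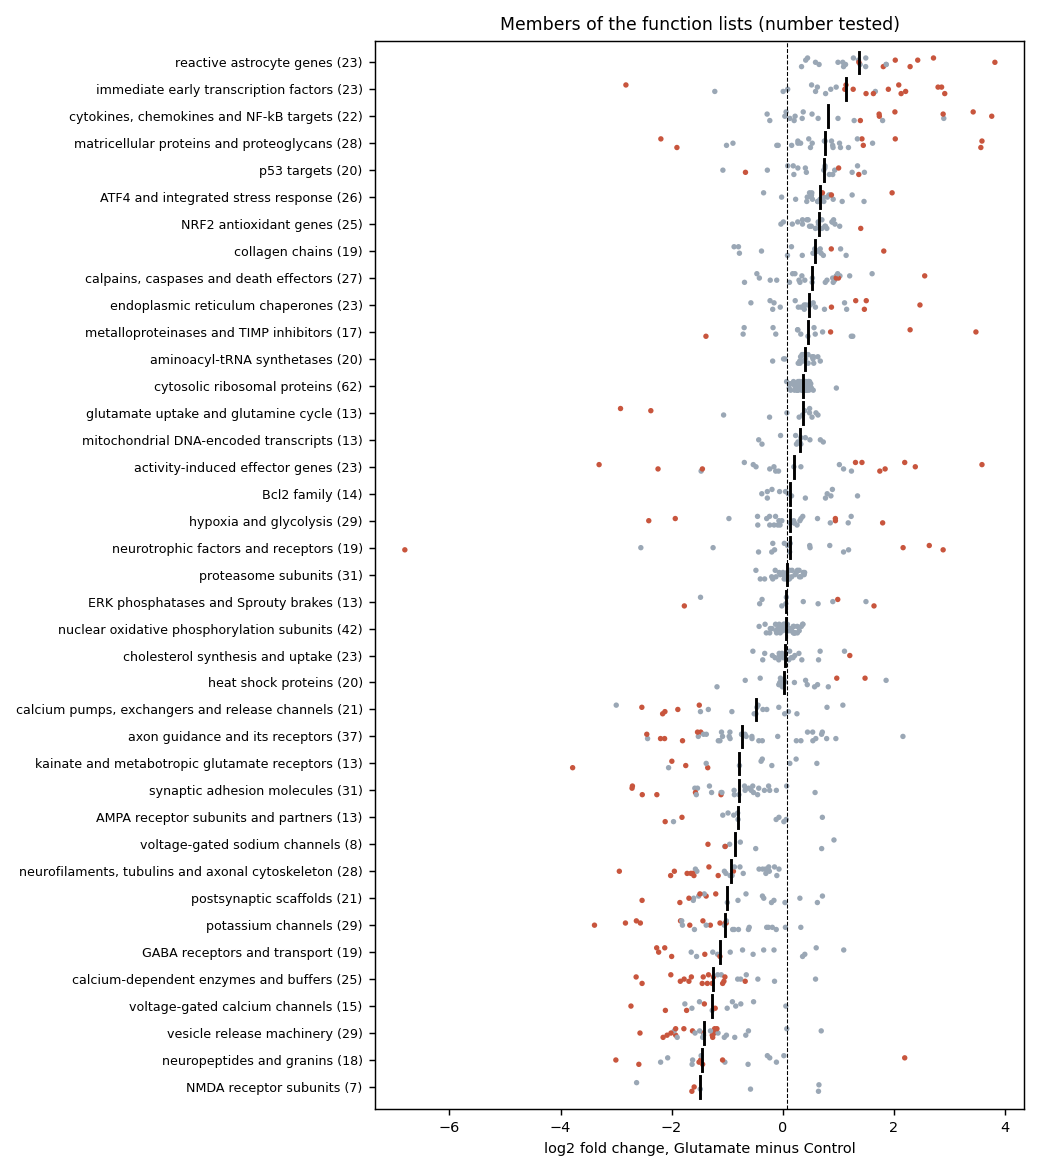
Log2 fold change of every tested member of the 39 function lists, sorted by list median (black bar), with members at an unadjusted quasi-likelihood p below 0.05 in red and the median over all genes tested, 0.08, as a dashed line. Synaptic, channel and calcium lists lie at the bottom with medians from -1.48 upwards, and reactive astrocyte genes at the top with a median of 1.37.

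Glial reactivity and inflammation lists were on the higher side, beside 2.13% higher and 5.97% lower among all genes. All 23 reactive astrocyte genes had a log2 fold change above 0, with a median of 1.37 (0.93 without Control 1 and 2.26 without Control 3), and 7 had an unadjusted p below 0.05. Their summed CPM overlapped, with 1931, 2341 and 5278 in Control and 7096, 3991 and 10230 in Glutamate. Next to Nes, Sphk1, which makes the lipid mediator sphingosine-1-phosphate, had 2.57, 0.442 and 1.83 CPM in Control and 51.9, 5.78 and 6.42 in Glutamate, and its log2 fold change of 3.82 was 2.02 without Glutamate 1. Cd44, a hyaluronan receptor, had 3.14, 11.6 and 55.9 CPM in Control and 69.7, 148 and 73.4 in Glutamate, and Timp1, an inhibitor of metalloproteinases, had 40.8, 20.4 and 51.9 CPM in Control and 414, 24.6 and 115 in Glutamate, both named after their values were seen. For Timp1 the groups overlapped through Glutamate 2. The summed markers of microglia and of fibroblasts, given above, were highest in Glutamate 3 and in Glutamate 1 respectively, and their part in these values was not tested. Of 22 cytokine, chemokine and NF-kB genes, 7 were higher and 0 lower, with a median of 0.82 (0.51 without Glutamate 2 and 1.81 without Control 3). Ccl2, a chemokine for monocytes, had 1.71, 0.245 and 5.28 CPM in Control and 84.5, 4.83 and 11.97 in Glutamate, and Ccl7 had 0.571, 0.245 and 2.26 CPM in Control and 27.4, 1.27 and 6.91 in Glutamate. Glutamate 1 carried the largest values, and both overlapped between the groups. Without it the log2 fold change of Ccl2 moved from 3.76 to 1.76 and that of Ccl7 from 3.43 to 1.89. Socs3, the feedback inhibitor of STAT3 signalling, had 0, 4.52 and 4.47 CPM in Control and 12.01, 15.2 and 11.5 in Glutamate and was named after its values were seen.

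Matrix genes were mixed, beside 2.13% higher and 5.97% lower among all genes. Of 28 matricellular and proteoglycan genes, 5 were higher, with Ccn1 first, and 2 lower. Lamb1, a laminin chain, had 7.14, 23.2 and 18.8 CPM in Control and 5.04, 2.41 and 3.41 in Glutamate, and Ccn3, a relative of Ccn1, had 2.28, 2.99 and 3.02 CPM in Control and 0.646, 1.14 and 0.389 in Glutamate, both lower. Among 17 metalloproteinase and TIMP genes 3 were higher and 1 lower. Adamts1, a secreted protease that cuts proteoglycans, had 0, 0.442 and 1.62 CPM in Control and 6.97, 17.01 and 2.63 in Glutamate, Mmp14 91.1, 93.5 and 86.8 CPM in Control and 102, 195 and 196 in Glutamate and Mmp17 44.8, 30.8 and 26.2 CPM in Control and 20.3, 6.92 and 11.9 in Glutamate. Of 19 collagen chains, 2 were higher, namely Col5a3 with 37.97, 37.6 and 42.2 CPM in Control and 76.3, 70.8 and 68.9 in Glutamate and Col18a1 with 0, 0.933 and 2.69 CPM in Control and 4.91, 4.38 and 4.96 in Glutamate.

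Few members of the stress lists passed. Of 26 genes of the integrated stress response, 24 had a log2 fold change above 0, with a median of 0.68, and 3 had an unadjusted p below 0.05, led by Ppp1r15a. Shmt2, the mitochondrial enzyme that moves serine carbon into folate, had 86.8, 80.3 and 83.5 CPM in Control and 199.5, 107 and 154 in Glutamate. Ddit3, the factor CHOP, had 117, 41.6 and 32.4 CPM in Control and 211, 21.9 and 70.1 in Glutamate, with overlap, and its log2 fold change of 0.67 ± 0.87 changed sign without Glutamate 1. Of 23 endoplasmic reticulum chaperones, 5 were higher. Hspa5, or BiP, the main chaperone of that compartment, had 125, 388 and 420.3 CPM in Control and 762, 1037 and 788 in Glutamate and a log2 fold change of 1.47 ± 0.50, and its partner Dnajc3 had 21.7, 16.1 and 14.7 CPM in Control and 47.3, 29.8 and 53.02 in Glutamate. Of 25 NRF2 antioxidant genes, 24 had a log2 fold change above 0, with a median of 0.64, and their summed CPM overlapped between the groups. At the unadjusted level 1 of them passed, which is near the 2.13% of all genes that were higher. This was the haem oxygenase Hmox1, with 72.8, 183 and 279 CPM in Control and 697, 393 and 327 in Glutamate. Control 1 lay below the other libraries for Hspa5 and Hmox1. Of 20 heat shock genes 2 were higher, namely Bag3 (6.57, 17.5 and 50.4 CPM in Control and 101, 43.7 and 65.3 in Glutamate) and Hspb8 (21.1, 30.7 and 46.2 CPM in Control and 54.9, 51.4 and 86.7 in Glutamate), and the median of the list was 0.03.

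In the cell death and metabolism lists few members passed, beside 2.13% higher and 5.97% lower among all genes. Of 27 calpain, caspase and death effector genes, 3 were higher and 0 lower, with a median of 0.53. Apart from Tnfrsf12a, the receptor-interacting kinase Ripk1 had 12.6, 14.6 and 18.1 CPM in Control and 32.03, 34.5 and 24.6 in Glutamate. Of 20 p53 targets, 2 were higher and 1 lower, with a median of 0.75 (0.44 without Glutamate 2). Cdkn1a, the cell cycle inhibitor p21, had 33.7, 66.4 and 49.5 CPM in Control and 112, 167 and 107 in Glutamate and a log2 fold change of 1.37 ± 0.38, the nuclease Aen had 95.1, 58.8 and 44.2 CPM in Control and 220.1, 74.8 and 102 in Glutamate, and Sesn1 was lower with 17.99, 22.8 and 20.4 CPM in Control and 14.98, 10.9 and 12.6 in Glutamate. Of 14 Bcl2 family genes 0 passed in either direction. Among 29 hypoxia and glycolysis genes, 3 were higher, with Hk2 first and P4ha1, a collagen prolyl hydroxylase, at 32.8, 30.9 and 29.5 CPM in Control and 48.4, 72.9 and 58.3 in Glutamate, and 2 were lower. These were Ndrg1, at 60.5, 124 and 123 CPM in Control and 32.3, 11.3 and 14.4 in Glutamate, and the neuronal glucose transporter Slc2a3, at 8.85, 45.3 and 36.3 CPM in Control and 10.8, 6.54 and 6.42 in Glutamate. The cholesterol list had a median of 0.04 and 1 higher gene of 23, near the share of all genes. It was the sterol oxidase Msmo1, with 73.7, 102 and 117 CPM in Control and 229.9, 215 and 232 in Glutamate. In 42 nuclear subunits of oxidative phosphorylation, 31 proteasome subunits, 62 ribosomal proteins, 20 aminoacyl-tRNA synthetases and 13 mitochondrially encoded transcripts, 0 passed at the unadjusted level. Their medians were 0.05, 0.08, 0.36, 0.40 and 0.31 in that order. All but the synthetases turned with 1 library. Of the 20 synthetases, 19 had a log2 fold change above 0, and 5 had groups without overlap, all higher, against 4.48% of all genes. Their summed CPM was 3427, 2979 and 2556 in Control and 4139, 3886 and 3889 in Glutamate, without overlap. The ribosomal protein median was 1.35 without Control 1 and -0.58 without Glutamate 1. The oxidative phosphorylation median was 0.71 without Control 1 and -0.54 without Glutamate 1, and the proteasome median 0.63 without Control 1 and -0.30 without Glutamate 1. The median of the mitochondrially encoded transcripts was -0.0060 without Glutamate 2.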

How the data were processed

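RNA was measured in 18 libraries, 1 file each, of which the 6 of Control and Glutamate are described. The deposited values are expected counts per gene, which are estimated counts that need not be whole. The authors trimmed the reads, quantified them with Salmon against rat transcripts of the build rn6 and summed transcripts to genes with tximport, and the submitters' processing notes also name STAR. Versions of Salmon and STAR are not given in the sources used here, and the labels and the methods name different library kits. The files hold 31463 rows and carry no scaling between libraries. How reads of overlapping genes or near-identical copies were divided is not stated, and such genes are uncertain.

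Counts were rounded and filtered with filterByExpr of edgeR 4.0.16 in R 4.3.3 (minimum count 10, minimum total 15), which left 14398 genes, and libraries were normalised by TMM (trimmed mean of M values). The design had been written for counts, and the rounded expected counts were used in their place. The two-sided quasi-likelihood F test compared Glutamate with Control in a fit of all 18 libraries with 1 mean per group, with Benjamini-Hochberg adjustment and a threshold of 0.05. The SE is that implied by the F statistic. CPM values use the TMM-scaled library size. The code was tested on simulated counts. Rows of rRNA were recognised by a RefSeq table of the assembly GRCr8, which matched 90.5% of tested genes by symbol.

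Named genes were the 12 with the smallest p in each direction among genes whose log2 CPM averaged 1 or more and whose groups did not overlap, up to 2 members in each direction per list, and 10 fixed genes (Fos, Arc, Npas4, Bdnf, Hmox1, Ddit3, Gfap, Snap25, Rbfox3 and Aif1). A few of these genes are not reported here, so that 11 of the 12 lower genes are described. List members without an unadjusted p below 0.05 were counted and not named. The members and the 49 gene lists were chosen with earlier results of these data known. The lists hold 1018 genes, of which 943 were tested, 60 were below the filter and 15 had no row. Alternatives were RLE scaling, DESeq2 1.42.0, the likelihood-ratio test that the study used, no filter, the 6 libraries alone, a replicate block, removal of rRNA rows, the rRNA share as a covariate, limma 3.58.1 voom with sample weights, and leaving out each library.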

Additional observations from a re-analysis of the deposited data

How the results depend on the processing

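The main test called 0 genes, as it did with the scaling of DESeq2 (RLE), without the filter, with rRNA rows removed, with only the 6 libraries, and without any 1 library (0 to 0). DESeq2 called 232 genes, with 477 higher at an unadjusted p below 0.05, and the likelihood-ratio test called 45. With a covariate for the log2 rRNA share, 32 were called and 1007 were higher, so that 55.8% of genes at the unadjusted level were lower against 73.7% as reported. limma voom with sample weights from 0.16 to 8.79 called 6113, with 4005 higher and 3503 lower. With 6 libraries, 111 were higher, and 86.4% of genes at this level were lower. Leaving out 1 library gave 167 to 417 higher and 510 to 842 lower genes, the lowest counts without Control 2 (167) and Glutamate 1 (189) for higher and without Glutamate 3 (510) for lower genes. Genes without overlap numbered 846 to 2339 on the higher and 1250 to 2483 on the lower side in these fits, where 2 against 3 libraries overlap less often by construction. Of the 49 gene lists, 24 had a median below that of all genes, and 19 to 26 did under the alternatives. The log2 fold change of Ddit3 was -0.45 without Glutamate 1 and lay between 0.36 and 1.45 without any other 1 library. No other gene given with values changed sign under any of these settings, and the causes of the differing counts were not tested.

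The labels use the same numbers in both groups, but they do not say that a number marks a shared animal or day. The paper's supplement mentions batch-corrected counts for a plot that includes both groups. For its plot of intact and vesicle-treated cultures it names day as the effect removed. It does not say which libraries shared a day. Deviations from the group means correlated at 0.59 and 0.57 for numbers 1 and 2 and at -0.12 for number 3. Control 3 was closest to Glutamate 2 (0.51). With 3 libraries per group these deviations constrain each other, so the correlations cannot decide on pairing. Ribosomal protein CPM was lowest at number 2 within every group, in Control by little. The sums were 10978 (Memantine 2) to 58342 (Glutamate_BPC 2) there and 33199.7 (Control 3) to 206266 (Glutamate_secret 3) elsewhere. The scaling factor was highest at number 2 except in Control (1.37 in Control 2, 1.42 in Control 3). Whether the number marks a batch was not tested, and the main test left it out. With the replicate number as a block, 166 genes were called in the fit of 18 libraries, with 608 higher and 1526 lower at the unadjusted level, and 318 in the fit of 6. In the fit of 18, edgeR called the 11 named lower genes and Trib1, Fos, Ccn1, Hk2 and Hbegf, with adjusted p-values from 0.0399 to 0.0498, and those of the other 7 named higher genes lay between 0.0509 and 0.0751. The same counts chose the named genes, and these calls are no further support.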
